A study of Mus musculus with 6 samples.

Results

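Intestinal epithelium is specified and kept in its regional identity by a small set of transcription factors, and 10 of them were followed here after deletion of Hnf4a. They were the caudal homeobox genes Cdx1 and Cdx2, the zinc-finger genes Gata4, Gata5 and Gata6, the Krüppel-like genes Klf4 and Klf5, the ETS gene Elf3, the cut-homeobox gene Onecut2 and the orphan nuclear receptor gene Nr5a2. The members were taken by name from probe sets annotated with exactly 1 gene symbol, and each gene was read from its brightest probe set, the one with the highest mean over the 6 arrays. All 10 genes were found, among 18193 genes on the array, and they had 23 probe sets together.

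RNA came from the distal jejunum of 3 mutant mice and 3 control littermates, all killed at 7 months of age, with 1 Affymetrix array per animal. The mutants lacked Hnf4a in the intestinal epithelium through a Cre recombinase driven by the Villin promoter, which is active in epithelial cells of the gut. Mice of both groups carry the strain label B6.129X1(FVB)-Hnf4atm1.1Gonz/J, a line with a loxP-flanked Hnf4a allele, and all received ketamine and xylazine before they were killed. The labels do not say whether controls carried the Cre transgene. The RNA was taken from the whole jejunal wall, so stroma, muscle and immune cells contributed to every value. In such bulk tissue, fewer cells of a type and less RNA per cell cannot be told apart.

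As background, Cdx2 sets the intestinal character of the hindgut endoderm and Cdx1 acts beside it in crypts. Gata4 is active in duodenum and jejunum and falls away toward the ileum, where its absence allows ileal genes such as those of bile acid uptake to be expressed, while Gata6 runs along the whole gut. Klf5 is found in dividing crypt cells and Klf4 in cells that have left the cycle, Elf3 is needed for the differentiation of enterocytes and goblet cells in mouse, Onecut2 is active in the proximal small intestine, liver and pancreas, and Nr5a2, also called LRH-1, acts in crypt renewal and gut steroid synthesis. Hnf4a belongs to the same network of factors.

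Hnf4a was checked first, as the deleted gene. Its log2 signal was 8.83, 8.83 and 9.82 in mutants 1 to 3, against 11.82, 11.76 and 11.57 in controls 1 to 3, a log2 difference of -2.56 ± 0.25 (SE) with an adjusted p of 0.00756 in limma's moderated test. Markers shared by gut epithelial cells (12 genes, Elf3 left out) averaged 12.25, 12.34 and 12.52 in the mutants, against 12.38, 12.31 and 12.32 in the controls, a difference of 0.04. Lct, the lactase gene of the jejunum, lay between 11.48 and 12.22 in mutants and between 12.34 and 12.62 in controls. With no other gut segment in the series, these values cannot check the tissue label. Some arrays stood apart in transcripts of other tissue or gut position. The mean of 8 pancreatic acinar markers was 8.20 in control 3 and at most 5.26 on any other array, and the mean of 8 fat markers was 8.38 in mutant 2 and at most 7.12 elsewhere. Fabp6, the ileal bile acid binding protein gene, read 9.57, 10.03 and 9.80 in mutants 1 to 3, against 9.15, 6.67 and 3.37 in controls 1 to 3 (chosen after its values were seen). Every mutant was above every control in Fabp6, with a log2 difference of 3.40 ± 1.19 (SE) and an adjusted p of 0.299 in limma's test. The controls differed widely among themselves in this distal gut transcript.

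Among the 10 factors, Onecut2 was the 1 gene that fell, and 0 rose. The threshold was an adjusted p under 0.05 in limma's test with Benjamini-Hochberg adjustment over all 18193 genes, which 0.528% of all genes passed, 0.33% lower and 0.198% higher in mutants. Gata4 and Gata6 read lower and Elf3 higher in every mutant than in any control, without passing the test. The values of both groups overlapped for Cdx1, Cdx2, Gata5, Klf4, Klf5 and Nr5a2. Groups thus did not overlap in 4 of the 10 factors, against 17.1% of all genes, with mutants below in 3 (10.2% of all genes) and above in 1 (6.93% of all genes). The same 4 had a raw limma p under 0.05, as had 12.1% of all genes. The median log2 difference of the 10 was -0.01, the same as over all genes at -0.01, with a range from -0.93 to 0.63. The number of arrays limits the precision, and a missed threshold does not show that a factor was unaltered.

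**Figure D1:**
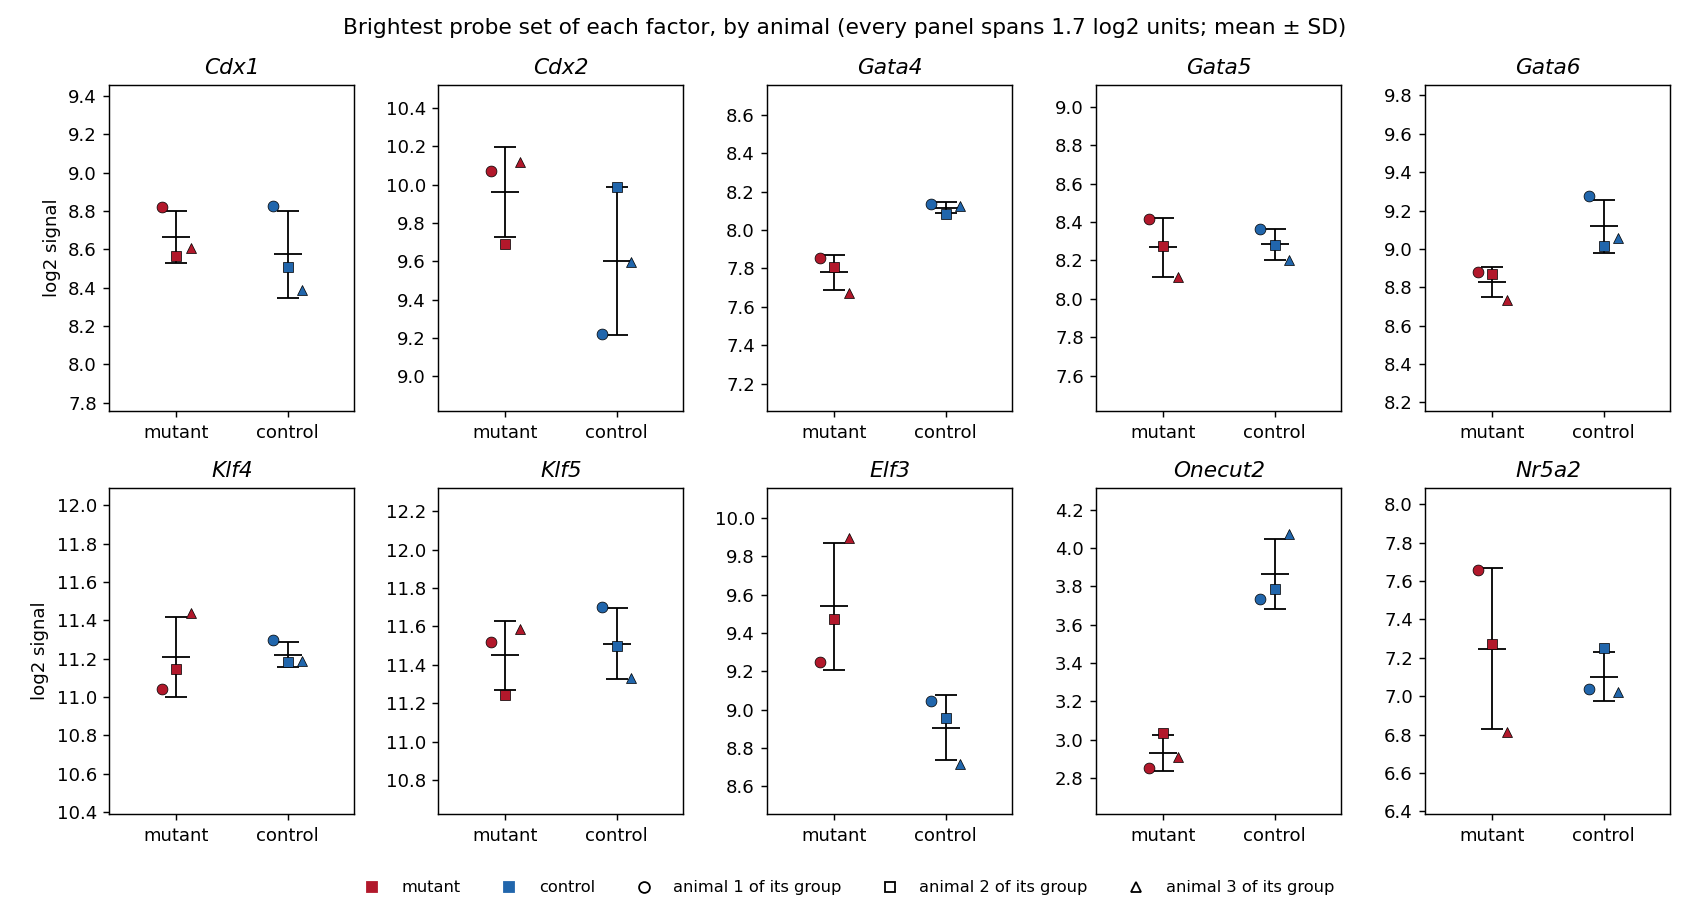
Log2 signal of the brightest probe set of each factor in 3 mutants (red, left) and 3 controls (blue, right), 1 point per animal, with the mean and SD as bars; each panel has its own vertical position and the same span. Mutants lie wholly below controls for Gata4, Gata6 and Onecut2 and wholly above them for Elf3, and overlap them in the other 6 panels.

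The caudal factors did not pass the test. Cdx2 read 10.07, 9.69 and 10.12 in mutants 1 to 3, against 9.22, 9.99 and 9.60 in controls 1 to 3. The groups overlapped, and control 1 was the lowest array. The log2 difference was 0.36 ± 0.20 (SE), with a 95% interval from -0.11 to 0.83 and an adjusted p of 0.554 in limma's test. Without control 1 the difference was 0.17, and without control 2 it was 0.55. The second Cdx2 probe set differed by 0.04 ± 0.16 (SE). Cdx1 read 8.82, 8.57 and 8.60 in mutants, against 8.83, 8.51 and 8.39 in controls. Its groups overlapped almost fully, with a log2 difference of 0.09 and a 95% interval from -0.23 to 0.41. Relative to Cdx2 on the same array, Cdx1 averaged -1.30 ± 0.20 in mutants and -1.03 ± 0.57 in controls (SD, n = 3 each), and the exact two-sided permutation test gave p = 0.6, where 0.1 is the smallest p that 3 against 3 allows.

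The promoter window of Cdx2 is shown because Cdx2 is the central factor of the group and did not pass the test. It comes from RefSeq's GRCm38.p6, at chr5:147307200-147307499 on the minus strand, from 250 bases before the annotated start to 50 after it, written 5′ to 3′, with the match to an ETS factor motif in capitals.
Cdx2: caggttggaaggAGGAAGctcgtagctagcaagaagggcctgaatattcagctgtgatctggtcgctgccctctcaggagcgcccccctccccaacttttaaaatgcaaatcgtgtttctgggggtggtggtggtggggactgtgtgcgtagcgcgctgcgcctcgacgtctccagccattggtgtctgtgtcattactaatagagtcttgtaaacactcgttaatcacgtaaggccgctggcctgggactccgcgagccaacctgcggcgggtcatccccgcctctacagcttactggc
The window was searched on both strands with the HNF4 motif CAAAGTCCA, the GATA factor motif AGATAA, the caudal factor motif CAATAAA, the Krüppel-like factor motif CCCCACCC, the ETS factor motif AGGAAG, the NR5A receptor motif CAAGGTCA and the ONECUT factor motif ATCAAT. It held 1 match, to the ETS motif, with no overlap between motifs. Over 32851 RefSeq promoter windows of this length, 35.4% held AGGAAG, so such a match is common.

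Gata4 and Gata6 read lower in every mutant than in any control without passing the test, and Gata5 overlapped between the groups. Gata4 read 7.85, 7.81 and 7.67 in mutants 1 to 3, against 8.14, 8.08 and 8.13 in controls 1 to 3. Every mutant was below every control, and the controls lay close together. The log2 difference was -0.34 ± 0.10 (SE), a 1.26-fold lower signal in mutants, with a 95% interval from -0.56 to -0.11, and it missed the threshold over all genes (adjusted p = 0.22, limma). The dimmer Gata4 probe set read 4.91, 5.39 and 4.57 in mutants, against 5.80, 5.33 and 5.42 in controls. There mutant 2 lay within the control values, and the difference was -0.56 ± 0.21 (SE).

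Gata6 read 8.88, 8.87 and 8.74 in mutants, against 9.27, 9.02 and 9.06 in controls. The groups did not overlap, and the log2 difference was -0.29 ± 0.11 (SE), with a 95% interval from -0.54 to -0.04 and an adjusted p of 0.341 in limma's test. A second Gata6 probe set, at 7.17, 7.00 and 6.92 in mutants against 7.41, 7.28 and 7.38 in controls, was also lower in every mutant (log2 difference -0.32 ± 0.11 SE). The third probe set, near the array median, differed by -0.06 ± 0.13 (SE) with overlapping groups. Gata5, the third gut member of the family, read 8.42, 8.28 and 8.11 in mutants, against 8.37, 8.28 and 8.20 in controls. Its difference was -0.02 ± 0.11 (SE), with a 95% interval from -0.28 to 0.25, and turned to 0.01 under quantile normalisation and 0.0048 with array weights. Its other probe set differed by 0.12 ± 0.13 (SE).

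Ratios on the same array do not move with a shift of the whole array. Gata4 relative to Gata5 was -0.56, -0.47 and -0.44 on the log2 scale in mutants 1 to 3, against -0.23, -0.20 and -0.08 in controls 1 to 3. Gata6 relative to Gata5 was 0.46, 0.59 and 0.62 in mutants, against 0.91, 0.74 and 0.85 in controls. Both ratios were lower in every mutant than in any control, by 0.32 and 0.27 on the log2 scale, and each reached the smallest exact two-sided permutation p of 0.1 (0.25 after adjustment over the 5 ratios examined). Gata4 relative to Gata6 was -1.03, -1.06 and -1.06 in mutants, against -1.14, -0.94 and -0.93 in controls, with overlapping groups (exact permutation p = 0.4). The groups were thus apart in both ratios to Gata5 and overlapped in the ratio of Gata4 to Gata6, and the design cannot reach a p under 0.05 for any ratio.

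**Figure D2:**
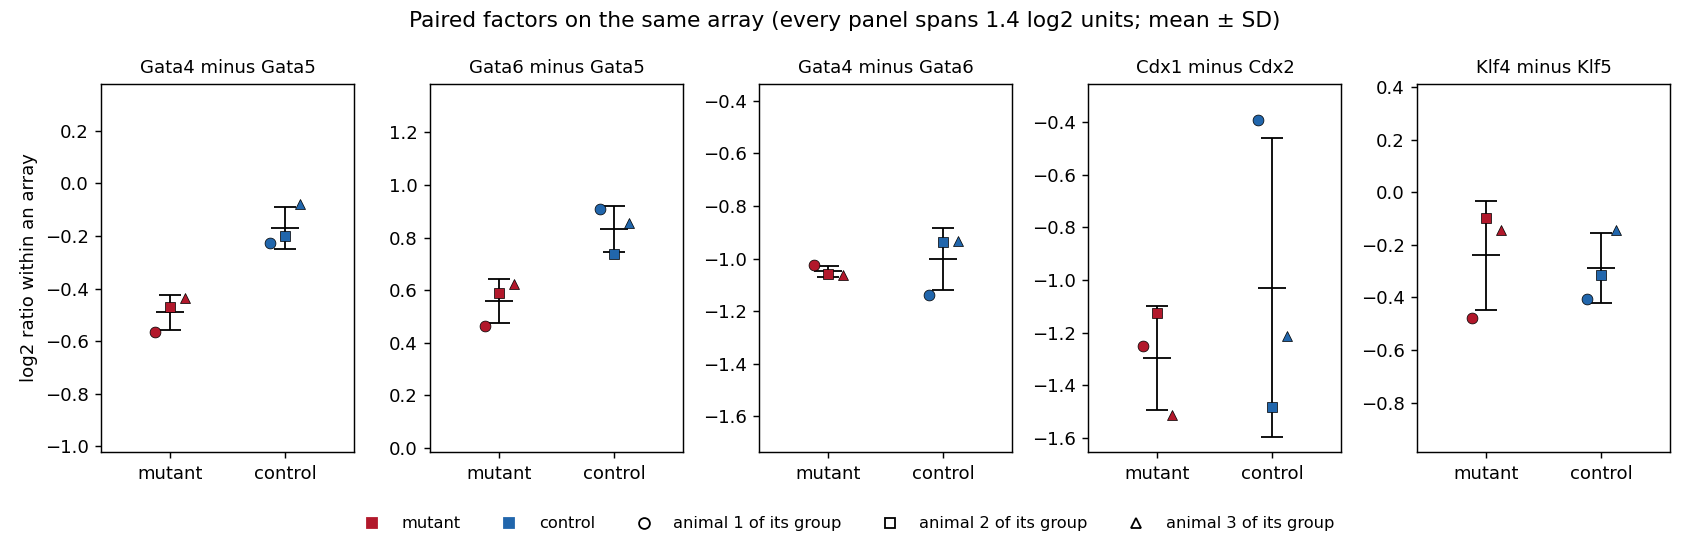
Log2 ratio of paired factors on the same array in 3 mutants (red, left) and 3 controls (blue, right), 1 point per animal, with the mean and SD as bars; all panels have the same span. Gata4 and Gata6 are lower relative to Gata5 in all mutants, whereas the ratios Gata4 to Gata6, Cdx1 to Cdx2 and Klf4 to Klf5 overlap between the groups.

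Genes tied to the GATA factors were read beside them. Of 15 measured genes of jejunal absorption that depend on, or accompany, Gata4 in the mouse jejunum, 0 passed the test in either direction. Of the 15, 14 lay below 0, with a median of -0.30. Over all 18193 genes, 9688 lay below and 8505 above 0. The widest separation was in Cubn, the cubilin gene of vitamin B12 uptake, at 9.69, 9.11 and 8.04 in mutants against 10.53, 11.81 and 11.34 in controls (log2 difference -2.28 ± 0.44 SE, adjusted p = 0.0832, limma). Fabp1, which encodes a carrier of fatty acids inside enterocytes, differed by -1.23 ± 0.24 (SE), and Npc1l1, the cholesterol uptake gene, by -0.46 ± 0.11 (SE). Of 9 measured enterocyte markers, some of them also on the jejunal list (Fabp1 and Lct among others), 0 passed and 8 lay below 0, and their mean was 12.41, 12.43 and 12.09 in mutants, against 12.65, 12.56 and 12.71 in controls. The part of enterocyte content in these values was not tested. Many of these genes are also known targets of HNF4 factors.

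Of 12 measured genes that mark ileum or distal gut (Cubn again among them), 1 fell, 0 rose and 9 lay above 0, with a median of 0.37. Of all 18193 genes, 8505 lay above 0. The gene that fell was Nts, the neurotensin gene, with a log2 difference of -1.16 ± 0.13 (SE) and an adjusted p of 0.0127 (limma). Gcg, the proglucagon gene of distal gut endocrine cells, read 8.63, 8.44 and 8.44 in mutants, against 8.06, 8.16 and 7.97 in controls (log2 difference 0.44 ± 0.11 SE, adjusted p = 0.151, limma). Slc10a2, the ileal bile acid importer gene, which is also on the list tied to Nr5a2, read 3.99, 4.40 and 6.98 in mutants, against 3.31, 2.93 and 3.26 in controls, all 3 controls below the array median and mutant 3 far above the rest. The difference was 1.96 ± 0.67 (SE), with an adjusted p of 0.289 in limma's test. Among the bile acid genes of this list, Fabp6, Slc51a, Slc51b and Fgf15 were highest in mutant 2, at 10.03, 10.63, 10.40 and 5.54. Slc10a2 was highest in mutant 3, and Gcg in mutant 1. Fabp6, Slc51a, Slc51b and Fgf15 were named here after their values were seen. The part of the sampled position along the gut in these values was not tested.

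Klf4 and Klf5 overlapped between the groups. Klf4 read 11.04, 11.15 and 11.44 in mutants 1 to 3, against 11.30, 11.18 and 11.19 in controls 1 to 3, and the mutants spread to both sides of the controls. Its log2 difference was -0.01 ± 0.13 (SE), with a 95% interval from -0.30 to 0.28. Klf5 read 11.52, 11.24 and 11.58 in mutants, against 11.70, 11.50 and 11.33 in controls. Its difference was -0.06 ± 0.14 (SE), with a 95% interval from -0.38 to 0.26. Both signs turned with quantile normalisation, to 0.04 for Klf4 and 0.03 for Klf5. The ratio of Klf4 to Klf5 on an array, which sets a factor of resting cells against one of dividing cells, averaged -0.24 ± 0.21 in mutants and -0.29 ± 0.13 in controls (SD, n = 3 each; exact permutation p = 0.9).

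Of 15 measured genes tied to Klf4 or Klf5, mostly of the cell cycle, 0 passed the test, with 8 above and 7 below 0 and a median of 0.08. Cdkn1a, the p21 cell cycle inhibitor gene induced by Klf4 in other cells, read 10.81, 11.05 and 11.33 in mutants, against 10.75, 10.18 and 10.46 in controls (log2 difference 0.60 ± 0.18 SE, adjusted p = 0.238, limma). Ccnd2, a D-type cyclin gene, differed by 0.47 ± 0.13 (SE) and Lgr5, a stem cell receptor gene, by 0.30 ± 0.14 (SE). All 3, which had the smallest limma p of the list, were higher in every mutant than in any control. Groups did not overlap in 4 of the 15 genes, against 17.1% of all genes. The other of these 4, Cdkn1b (chosen after its values were seen), was lower in every mutant than in any control.

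Elf3 had the largest positive difference of the 10 factors. It read 9.25, 9.47 and 9.89 in mutants 1 to 3, against 9.04, 8.96 and 8.72 in controls 1 to 3. Every mutant was above every control, with mutant 3 highest. The log2 difference was 0.63 ± 0.17 (SE), a 1.55-fold higher signal, with a 95% interval from 0.23 to 1.03. It missed the threshold over all genes (adjusted p = 0.196, limma). Without mutant 3 the log2 difference of Elf3 was 0.45. Expressed relative to the epithelial markers on each array, Elf3 was still higher in every mutant, by 0.59 on the log2 scale. Of these markers, Krt8, Krt18, Krt19 and Cldn7 are also on the list of genes tied to Elf3 below, so the reference is not independent of that list. Krt18 and Cdh1 were themselves higher in every mutant than in any control. Elf3 has a single probe set on the array, so no second one bears on it.

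The promoter window of Elf3 is shown because Elf3 had the largest positive difference. It comes from RefSeq's GRCm38.p6, at chr1:135258423-135258722 on the minus strand, 5′ to 3′, with the match to a KLF factor motif in capitals.
Elf3: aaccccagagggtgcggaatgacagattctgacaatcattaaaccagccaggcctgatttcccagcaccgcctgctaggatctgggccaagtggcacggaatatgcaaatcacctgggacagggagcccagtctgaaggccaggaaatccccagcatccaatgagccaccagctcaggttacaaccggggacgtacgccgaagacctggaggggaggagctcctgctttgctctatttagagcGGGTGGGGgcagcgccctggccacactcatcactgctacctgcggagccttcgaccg
The capitals read CCCCACCC on the opposite strand, at bases 244 to 251 of the window, which ends on the annotated start, and 9.99% of all windows held that motif. RefSeq windows were found for 5 of the 10 factors, Cdx2, Gata5, Klf4, Elf3 and Nr5a2, with 6 windows in all. The HNF4 motif CAAAGTCCA, found in 0.475% of all windows, was in 0 of the 6, which says only that these letters are not in these windows.

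Of 12 measured genes tied to Elf3, 0 passed the test, 9 lay above and 3 below 0, and the median was 0.26. Over all 18193 genes, 8505 lay above 0. Groups did not overlap in 4 of the 12, against 17.1% of all genes. Tgfbr2, the type II TGF-beta receptor gene that Elf3 activates in mouse intestine, read 8.47, 8.55 and 8.91 in mutants, against 8.17, 8.31 and 8.24 in controls (log2 difference 0.40 ± 0.13 SE, adjusted p = 0.28, limma). Krt18, a keratin gene of simple epithelia, read 11.08, 11.16 and 12.00 in mutants, against 10.76, 10.80 and 10.64 in controls (log2 difference 0.68 ± 0.23 SE). Both were highest in mutant 3, the array with the highest Elf3 value, whereas Lcn2 was highest in mutant 1. Mutant 3 also stood apart in genes of other lists. It was the highest of the 6 arrays in Myc, at 7.64, and the lowest in Pck1, at 5.31 (both chosen after their values were seen). Lcn2, an iron-sequestering defence gene, differed by 0.38 ± 0.12 (SE) but lay below the array median on all 6 arrays.

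Onecut2 fell in the mutants, and its signal was near background in the controls too. It read 2.85, 3.04 and 2.91 in mutants 1 to 3, against 3.73, 3.78 and 4.07 in controls 1 to 3. The groups did not overlap, and all mutants and 2 of the 3 controls lay below the median probe set of their array, which was between 3.93 and 3.98. The log2 difference was -0.93 ± 0.12 (SE), a 1.91-fold lower signal, with a 95% interval from -1.21 to -0.65 and an adjusted p of 0.024 in limma's test. Because values this low are close to background, the size of the fold is uncertain. The call was lost when any array but control 1 was left out, with adjusted p from 0.047 to 0.102 in limma's test over the 6 refits. It was also lost with low values set to a floor at the 20th percentile (log2 difference -0.91, adjusted p = 0.116, limma) and when its probe sets were averaged (log2 difference -0.69, adjusted p = 0.188, limma).

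The other Onecut2 probe sets lay below the array median on all 6 arrays. The second probe set read 2.63, 2.55 and 2.68 in mutants, against 2.67, 3.15 and 3.60 in controls, and the third read 2.26, 2.56 and 2.51 in mutants, against 2.55, 3.01 and 3.61 in controls. Each differed in the same direction, by -0.52 ± 0.21 (SE) and -0.61 ± 0.24 (SE), with control 1 within the range of the mutants. Control 3 was the highest array and control 1 the lowest control on all 3 probe sets. Control 3 was also the array with pancreatic acinar transcripts and the lowest Fabp6 signal, and control 1 had the highest Fabp6 signal of the controls. Without control 3 the log2 difference of the brightest probe set was -0.83, and without control 3 and mutant 2 it was -0.88 (adjusted p = 0.262, limma). Whether gut position or pancreatic tissue took part in the Onecut2 difference was not tested beyond these values.

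**Figure D3:**
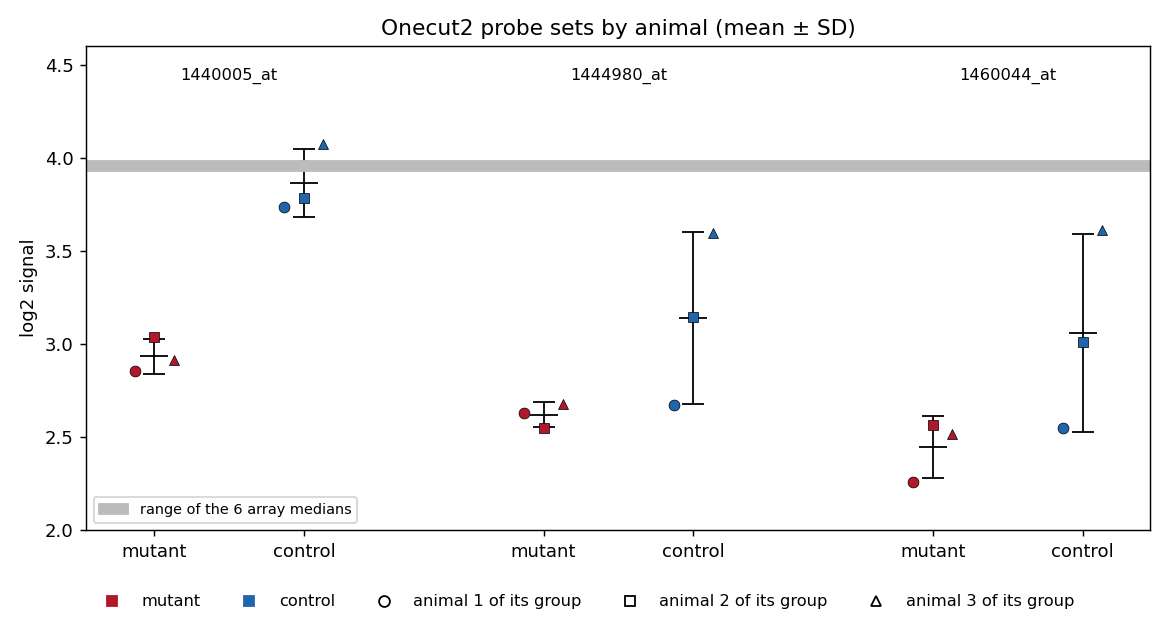
Log2 signal of the 3 Onecut2 probe sets in 3 mutants (red, left of each pair) and 3 controls (blue, right), 1 point per animal, with the mean and SD as bars and the range of the array medians as a grey band. All values but that of control 3 on the leftmost probe set lie under the grey band, control 3 is the highest point of each probe set, and the groups are fully apart on the brightest, leftmost probe set alone.

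Genes tied to Onecut factors in pancreas, liver or gut did not share one direction. Of 14 measured genes, 1 rose, 1 fell and 12 did not pass, with a median of 0.04. Ghrl, the ghrelin gene, read 6.59, 6.55 and 6.45 in mutants, against 5.59, 5.55 and 5.48 in controls. Gip, the incretin hormone gene, read 9.07, 8.99 and 8.92 in mutants, against 10.85, 10.75 and 11.06 in controls. Ghrl rose by 0.995 ± 0.10 (SE) and Gip fell by 1.89 on the log2 scale. Ttr, the transthyretin gene, a classical liver target of Onecut1, differed by -0.80 ± 0.14 (SE; adjusted p = 0.0702, limma). The 3 factors whose centred profile over the 6 arrays was nearest to that of Onecut2, out of 69 other gut factors, relatives and cofactors, were Elf2, Klf11 and Vdr, with root mean square differences of 0.35, 0.36 and 0.36 on the log2 scale. Their own log2 differences were -0.33, -0.26 and -0.50, against -0.93 for Onecut2, so none of the 3 differed as much.

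Nr5a2 did not separate the groups. It read 7.66, 7.27 and 6.81 in mutants 1 to 3, against 7.04, 7.25 and 7.02 in controls 1 to 3, so that mutants 1 and 3 were the highest and the lowest of the 6 arrays. The log2 difference was 0.15 ± 0.20 (SE), with a 95% interval from -0.31 to 0.61 and an adjusted p of 0.847 in limma's test. Without mutant 1 it was -0.06, and its other 3 probe sets differed by 0.06, -0.17 and -0.06. Of 16 measured genes tied to Nr5a2, 0 passed, with 9 above 0 and a median of 0.02. Nr0b2, the gene of the corepressor SHP that Nr5a2 induces in liver (chosen after its values were seen), read 5.20, 5.33 and 5.37 in mutants, against 5.78, 5.19 and 5.82 in controls. Abcg8, a subunit of the sterol exporter, differed by -0.81 ± 0.25 (SE) and Slc51b, a subunit of the basolateral bile acid exporter, by 0.65 ± 0.18 (SE).

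Reading every probe set in place of the brightest changed no direction among the factors whose groups were apart. Of the 23 probe sets, 1 passed the test over all probe sets with 1 symbol, the brightest of Onecut2 (adjusted p = 0.0345, limma), where 0.286% of all probe sets were called. Groups did not overlap on 5 of the 23, where 15.5% of all probe sets had groups that did not overlap, and these 5 belonged to Gata4, Gata6, Elf3 and Onecut2.

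**Figure D4:**
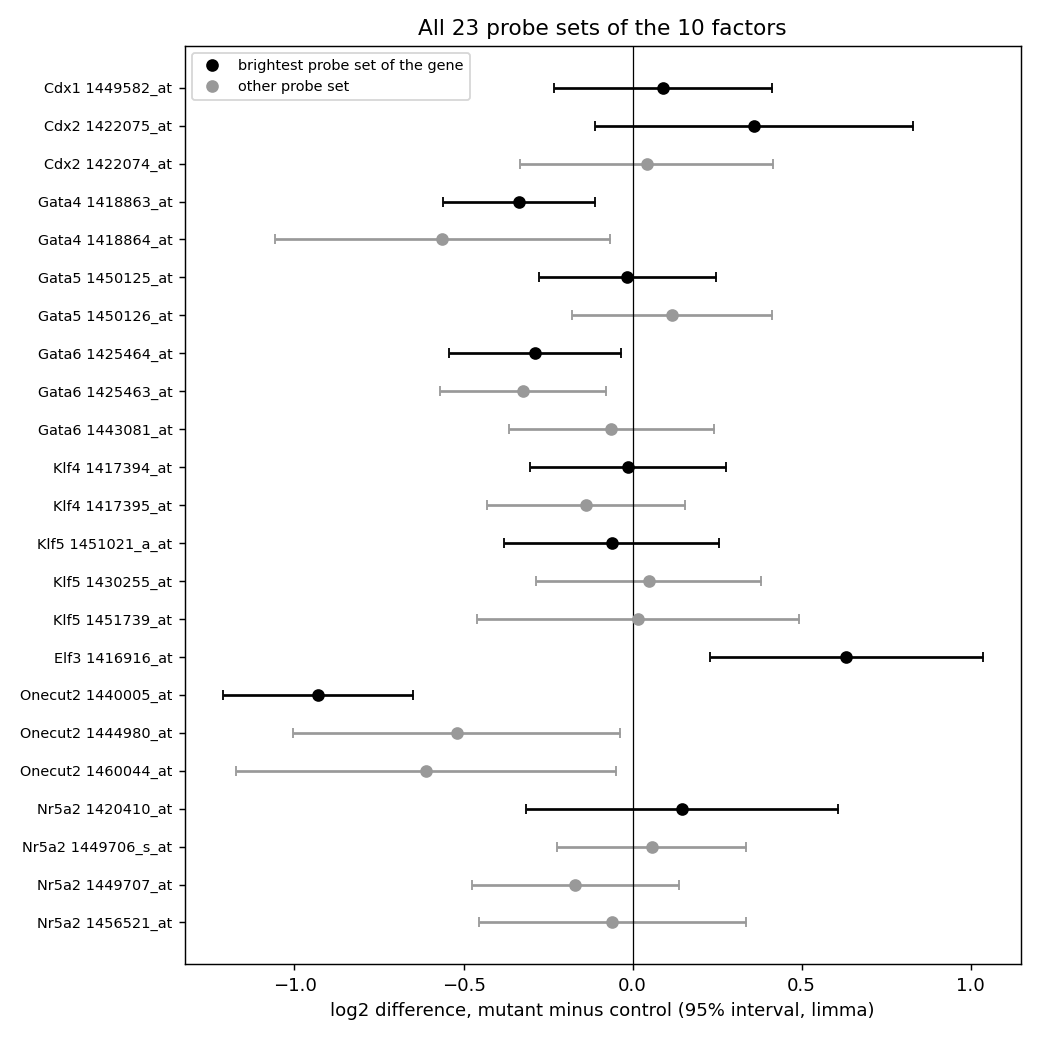
Log2 difference, mutant minus control, of all 23 probe sets of the 10 factors, with 95% intervals from limma (black, brightest probe set of the gene; grey, other probe sets). Intervals lie wholly below 0 for both Gata4 probe sets, 2 of the 3 Gata6 probe sets and all Onecut2 probe sets, and wholly above 0 for Elf3.

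The relatives of these factors were read for comparison. Of 27 measured relatives from the same families, 0 passed the test, with 12 above and 15 below 0 and a median of -0.05. Klf2, a factor of endothelium and T cells, read 6.68, 7.07 and 6.31 in mutants, against 6.02, 5.85 and 5.72 in controls (log2 difference 0.82 ± 0.19 SE, adjusted p = 0.129, limma). Of 14 measured blood cell markers, 0 passed and 13 lay above 0, as did 8505 of all 18193 genes. The mean of the blood cell markers was 6.60, 6.83 and 6.62 in mutants, against 6.70, 5.91 and 6.08 in controls, with overlapping groups. The part of blood cells in the Klf2 value was not tested. Klf11 and Elf2 differed by -0.26 ± 0.11 (SE) and -0.33 ± 0.16 (SE). Onecut1, a close relative of Onecut2 (chosen after its values were seen), lay below the array median on all 6 arrays and differed by -0.27 ± 0.14 (SE).

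Of 8 measured cofactors, 0 passed and the median was 0.01. Smooth muscle and fibroblast markers had 0 of 10 genes each past the test, with medians of 0.02 and 0.10. Enteroendocrine markers had 1 gene up (Ghrl), 2 down (Gip and Nts) and 11 not past, and markers of duodenum or proximal gut had 2 up (Ghrl and the calbindin gene S100g), 1 down (Gip) and 8 not past, with medians of 0.15 and 0.02.

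Among 34 other measured gut transcription factors, 2 fell, 0 rose and 32 did not pass, with a median of 0.06. Hnf4a was 1 of the 2, and its fall was set by its deletion. The other was Nr1i3, the gene of the xenobiotic receptor CAR, which fell by 1.94 on the log2 scale (adjusted p = 0.0241, limma). Groups did not overlap in 9 of the 34 factors, against 17.1% of all genes. Vdr, Pax6, Pou2f3 and Foxl1, which did not pass the test, were also lower in every mutant than in any control. Their log2 differences were -0.50, -0.23, -0.22 and -0.17 (Pax6, Pou2f3 and Foxl1 were chosen after their values were seen). The forkhead genes Foxa1, Foxa2 and Foxa3, pioneer factors of endoderm, were higher in every mutant than in any control, with log2 differences of 0.53 ± 0.17, 0.48 ± 0.14 and 0.46 ± 0.15 (SE) and adjusted p of 0.259, 0.234 and 0.257 in limma's test (Foxa1 and Foxa3 were chosen after their values were seen). Foxa2 read 6.19, 6.01 and 5.70 in mutants, against 5.40, 5.62 and 5.44 in controls. Hnf4g, the gut paralog of Hnf4a, differed by 0.16 ± 0.16 (SE) with overlapping groups (also chosen after its values were seen). Of 17 measured genes tied to Cdx factors in gut, 2 fell, 0 rose, and the median was -0.02. The 2 were Gip and Hnf4a, which is the deleted gene, so that its fall says nothing about Cdx factors. Lct, a direct Cdx2 target, read lower in every mutant than in any control, with a log2 difference of -0.61 ± 0.19 (SE).

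**Figure D5:**
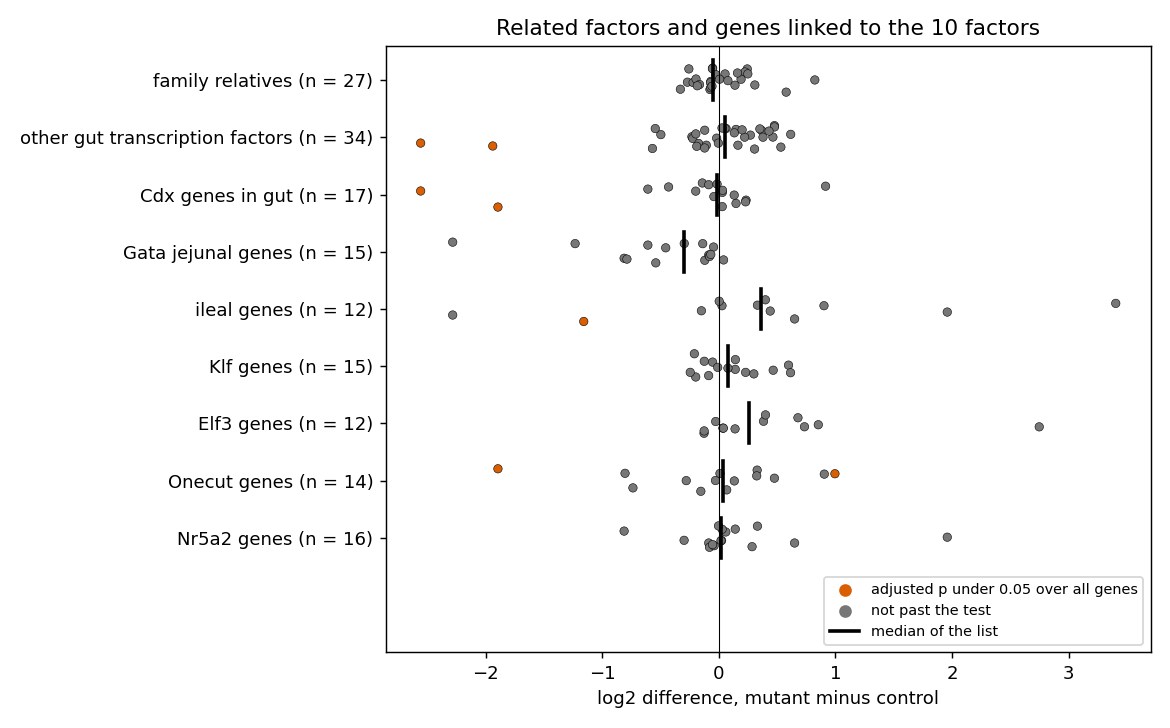
Log2 difference, mutant minus control, of each measured gene in the lists of related factors and of genes tied to the 10 factors (1 point per gene, orange where the adjusted p was under 0.05, black bar the median of the list); lists share some genes. Medians of the jejunal genes tied to GATA factors and of the ileal genes lie on opposite sides of 0, at -0.30 and 0.37. Hnf4a, the deleted gene, is an orange point among the other gut transcription factors and among the Cdx genes.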

How the data were processed

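The authors deposited a table with a log2 signal for each probe set in 3 mutant and 3 control mice. How they corrected, summarised and normalised the arrays is not given in the sources used, and that the scale is log2 was inferred from the range of the values. Array medians lay between 3.93 and 3.98, so no further scaling was applied. Rank correlations between arrays ran from 0.9796 to 0.9871, and no pair of arrays was identical. Of 45101 probe sets, 64 controls were left out, 34945 had 1 gene symbol in the platform annotation, 932 several and 9160 none listed. Entrez identifiers of 34741 were found in RefSeq's GRCm38.p6 table, used for names, with 0 symbols updated.

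Groups were compared with limma 3.58.1 (lmFit, eBayes) under R 4.3.3. The model held group alone, tests were two-sided, and p-values were adjusted by Benjamini-Hochberg across 18193 genes. The procedure was tested on simulated data. At an adjusted p under 0.05 (limma) it recovered 19.4% of simulated log2 differences of 0.5, 71.6% of those of 1 and 95.5% of those of 2. Most simulated differences of 0.5 were thus missed. Each limma p-value sets the group difference against the spread between these animals, moderated by the variance over all genes. The members and lists were chosen with earlier results of these data known, so list counts are descriptions without a set test. Lists were 19 besides the members. All members are named. Other named genes were drawn from those of a list past the test or, where fewer than 3 passed, from the 3 with the smallest p, and the text says where a gene was chosen otherwise. Alternatives covered scaling, a floor, a filter, probe set choice, variance model, array weights, a replicate block and omission of arrays.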

Additional observations from a re-analysis of the deposited data

How the results depend on the processing

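Onecut2 was the 1 factor past the test in the main setting and kept its direction under all 17 alternatives that gave it a value, from -0.99 to -0.69 on the log2 scale. The number of factors past the test was 0 with a floor at the 20th percentile, with only genes above the median tested (which leaves out Onecut2), with probe sets averaged per gene, with the replicate block, without control 3 and mutant 2 together, and at an adjusted p under 0.01 (limma), against 1 otherwise, and 0 to 1 with single arrays left out. At an unadjusted p under 0.05 there were 4. Gata4, Gata6, Elf3 and Cdx2 kept their direction and stayed short of the threshold under all 18 alternatives, with ranges from -0.56 to -0.28, from -0.34 to -0.21, from 0.45 to 0.78 and from 0.17 to 0.55. Values near 0 changed sign. Gata5 was 0.011 with quantile normalisation, 0.051 as the mean of its probe sets, 0.12 with the most variable one and 0.0048 with array weights. Klf4 was 0.039 with quantile normalisation and 0.0015 without control 3 and mutant 2. Klf5 was 0.031, 0.00096 and 0.016 with quantile normalisation, the mean and the most variable probe set, and Nr5a2 was -0.0065 with the mean. With single arrays left out, Cdx1 ran from -0.0024 to 0.22, Gata5 from -0.090 to 0.063, Klf4 from -0.13 to 0.071, Klf5 from -0.15 to 0.042 and Nr5a2 from -0.058 to 0.36. The cause of these changes was not tested. Centring on epithelial markers was added after the data were seen and left 1 factor past the test. Equal replicate numbers are not said to mark pairs. Deviations of same-numbered animals correlated at 0.07, 0.07 and -0.02, and mutant 2 correlated best with control 3 (0.13). With the replicate block, Onecut2 had an adjusted p of 0.0561 (limma). Over all genes 96 were called, against 62 with the block, 150 with array weights, 5 with the floor, 4 without control 3 and mutant 2, and 22 to 96 with single arrays left out.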

Other observations

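Some genes read beside the 10 factors differed widely between animals of the same group. Sprr1a, a gene of the small proline-rich family induced in stressed epithelium and listed here with genes tied to Elf3, read 4.25, 6.63 and 8.90 in mutants 1 to 3, against 4.16, 3.56 and 3.82 in controls 1 to 3 (chosen after its values were seen). The log2 difference of Sprr1a was 2.75 ± 0.96 (SE) with an adjusted p of 0.299 in limma's test. Nos2, the inducible nitric oxide synthase gene, read 5.70, 5.01 and 4.73 in mutants, against 4.94, 3.82 and 4.14 in controls (also chosen after its values were seen). The SD of Nos2 was 0.50 in mutants and 0.57 in controls, so it spread in both groups. Fgf15, the ileal hormone gene of bile acid feedback, read 4.08, 5.54 and 4.03 in mutants, against 4.15, 4.52 and 3.77 in controls, and was highest in mutant 2 (chosen after its values were seen too).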
